A study of Mus musculus with 12 samples.

Results

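The 53 gene symbols described here belong to the interferon-stimulated antiviral programme and the pathway that controls it. The list was chosen with earlier results of these data known, so its counts beside those of all genes are descriptions. Its members were matched to the gene table by symbol, and 52 of the 53 were found among the 24770 symbols there. The symbol not found, Rigi, is another name of Ddx58, which was found. Of the 52, 51 reached 1 FPKM (fragments scaled to transcript length and library size) in at least 3 of the 12 libraries and were tested, and Mx1 did not. The libraries came from GC-2, a mouse line labelled wild type and as type B spermatogonia. It was made immortal by the large T antigen of SV40 together with mutant p53. Cells were kept for 24 h in 4 ways, with 3 biological replicates each: DMSO, the solvent control, under normoxia; DMSO under hypoxia at 1% O2; 1 µM MLN4924 under normoxia; and 1 µM MLN4924 under hypoxia. MLN4924 inhibits the enzyme that activates NEDD8, a small protein related to ubiquitin that cullin-based ubiquitin ligases need. The labels name no interferon or virus given to the cells. Normoxia is given in the labels without a value for oxygen.

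Type I interferons bind a receptor made of Ifnar1 and Ifnar2, and the kinases Jak1 and Tyk2 then phosphorylate Stat2. With Irf9 it is part of a complex that binds interferon-stimulated response elements and turns on sensors of foreign nucleic acid and effectors that block viral replication. Many cells keep a low level of these transcripts without infection, and several of the products, such as Stat2, Irf7 and Irf9, act in the same pathway.

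Promoter letters are shown first, because members with and without an interferon motif are set side by side further on. RefSeq promoter windows on GRCm38.p6, from 250 bases before to 50 after a start site, were matched by symbol for 41 of the members, in 49 windows. The core GAAANNGAA of the interferon-stimulated response element, searched on both strands, was present in 20 of the 49 windows (40.8%), against 8.56% of all 32851 windows. TTCNNNGAA, the gamma-activated sequence, which reads the same on both strands, was present in 10 windows (20.4%) against 8.30% of all windows. The core of the hypoxia response element, ACGTG on either strand, was present in 2 (4.08%; Igtp and Oasl2) against 19.6%. A match is only a run of letters and was not tested as a binding site. The lines below give the stretch around the interferon core for the 7 members that hold it among those whose response to hypoxia differed with MLN4924, each 5′ to 3′ on the strand of its gene, with 1 match to the core in capitals (Gbp3, Irgm1 and Trim21 hold 2 in their window). Where the capitals begin with TTC the core lies on the opposite strand.
Gbp2 stretch (chr3:142620587-142620631, plus strand): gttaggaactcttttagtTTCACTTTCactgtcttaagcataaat
Gbp3 stretch (chr3:142559988-142560032, plus strand): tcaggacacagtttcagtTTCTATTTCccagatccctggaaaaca
Gbp7 stretch (chr3:142530266-142530310, plus strand): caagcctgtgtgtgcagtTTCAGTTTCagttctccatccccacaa
Ifi44 stretch (chr3:151749887-151749931, minus strand): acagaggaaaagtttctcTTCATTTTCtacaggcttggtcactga
Igtp stretch (chr11:58199504-58199548, plus strand): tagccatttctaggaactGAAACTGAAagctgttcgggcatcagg
Irgm1 stretch (chr11:48871418-48871462, minus strand): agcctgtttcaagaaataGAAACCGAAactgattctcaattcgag
Trim21 stretch (chr7:102565453-102565487, minus strand): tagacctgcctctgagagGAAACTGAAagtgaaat
The next lines give the 250 bases before the start site of Igtp, the member of these 7 that fell most with hypoxia, and of Gbp7, a guanylate-binding protein that also holds both interferon-related motifs, with every match to the 3 motifs in capitals.
Igtp upstream (chr11:58199306-58199555, plus strand): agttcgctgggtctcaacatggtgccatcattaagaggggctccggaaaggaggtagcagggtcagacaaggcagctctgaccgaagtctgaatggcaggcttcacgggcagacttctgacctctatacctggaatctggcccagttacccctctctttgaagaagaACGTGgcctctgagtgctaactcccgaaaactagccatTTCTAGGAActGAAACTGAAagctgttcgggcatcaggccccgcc
Gbp7 upstream (chr3:142530086-142530335, plus strand): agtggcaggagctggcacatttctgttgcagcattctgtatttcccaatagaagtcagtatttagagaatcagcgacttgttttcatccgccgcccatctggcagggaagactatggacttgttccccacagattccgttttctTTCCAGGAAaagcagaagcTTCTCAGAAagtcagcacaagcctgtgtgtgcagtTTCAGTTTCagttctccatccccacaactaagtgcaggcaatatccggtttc
In Igtp the capitals mark, in order, ACGTG, a gamma-activated sequence and the interferon core. In Gbp7 they mark a pair of gamma-activated sequences followed by the interferon core.

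Library totals ran from 530452 to 633597 FPKM, and 11180 to 11644 genes per library reached 1 FPKM. FPKM does not carry read counts, so depth was unknown. DMSO hypoxia replicate 1 stood apart, with the highest total and a mean Spearman correlation of 0.926 with the other two libraries of its group, where libraries outside that group reached 0.977 to 0.980. Of 10 spermatogonial markers, 6 were in the table and 2 reached 1 FPKM in a group (Uchl1 and Gfra1), while the germ cell genes Kit and Ddx4 stayed under 1 FPKM in every library. No marker of spermatocytes and spermatids reached 1 FPKM in a group. Of 9 markers of fibroblasts and peritubular cells 6 reached 1 FPKM in a group, and the 9 summed to at least 1086 FPKM in each library. Most of that sum was Col1a1, Col1a2 and Acta2, while Dcn, Thy1 and Myh11 stayed under 1 FPKM in every library. The defining markers of the labelled cell type were thus mostly not found in these libraries. Single markers differed between the groups. Acta2 had means of 52.5 ± 2.3 FPKM (SD, n = 3) in DMSO normoxia, 27.9 ± 3.802 in DMSO hypoxia, 371 ± 8.38 in MLN4924 normoxia and 406 ± 15.8 in MLN4924 hypoxia, and Col1a1 had 617 ± 7.14, 684 ± 94.7, 366 ± 0.635 and 465 ± 11.97 in the same order. In that order too, the Sertoli cell marker Wt1 had means of 0.463 ± 0.0651, 6.56 ± 1.38, 0.167 ± 0.289 and 1.96 ± 0.698 FPKM, and the Leydig cell marker Star 10.7 ± 0.564, 4.46 ± 1.68, 2.17 ± 1.24 and 5.08 ± 1.68. The Sertoli cell markers Sox9 and Inha had means that moved in the same directions as Wt1, higher with hypoxia and lower with MLN4924. Sox9 had means of 6.12, 7.7, 2.28 and 3.93 FPKM, and Inha 1.72, 2.17, 0.47 and 0.527. Gata4 and Rhox5 were not clearly higher with hypoxia in both arms. Gata4 had 7.52, 6.3, 5.31 and 5.36, and Rhox5 2.63, 2.74, 2.47 and 1.8. Summed, the Sertoli cell markers were at 16.7 to 19.7 FPKM in DMSO normoxia and 23.7 to 27.3 in DMSO hypoxia. With MLN4924 the sums were 9.19 to 13.6 in normoxia and 11.5 to 16.3 in hypoxia. Amh, Fshr and Dhh stayed under 1 FPKM in every library. Of 12 macrophage and leukocyte markers 7 were in the table and 2, Cd68 and Cd14, reached 1 FPKM in a group. Their summed level was 10.9 to 14.9 FPKM in DMSO normoxia, 9.73 to 12.2 in DMSO hypoxia, 11.2 to 13.3 in MLN4924 normoxia and 13.3 to 15.3 in MLN4924 hypoxia, with Itgam at or under 0.01 FPKM throughout. The part of these markers and of such cells in the results below was not tested.

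Hypoxia in DMSO lowered most of the programme. Differences are on the log2(FPKM + 1) scale with the standard error of the limma fit, and the words rose and fell are kept for genes with a Benjamini-Hochberg adjusted p under 0.05 over all 12311 tested genes. Of the 51 tested members 39 fell (76.5%) and 2 rose, while 19.4% of all tested genes fell and 13.8% rose. Without DMSO hypoxia replicate 1, 43 members fell and 2 rose, while the shares of all genes just given are from the fit with all libraries. The median difference was -1.14 over the members and -0.08 over all tested genes. With median-of-ratios scaling, 15.8% of all genes fell and 16.9% rose, so the balance of all genes depends on the scaling. In 44 of the 52 members in the table every DMSO hypoxia library was below every DMSO normoxia library, against 26.9% of tested genes. Summed over the 52, the level was 2290 to 2549 FPKM in DMSO normoxia and 1165 to 1283 in DMSO hypoxia. In RNA from bulk cultures, fewer cells that express a gene and less of its RNA in each cell cannot be told apart.

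**Figure D1:**
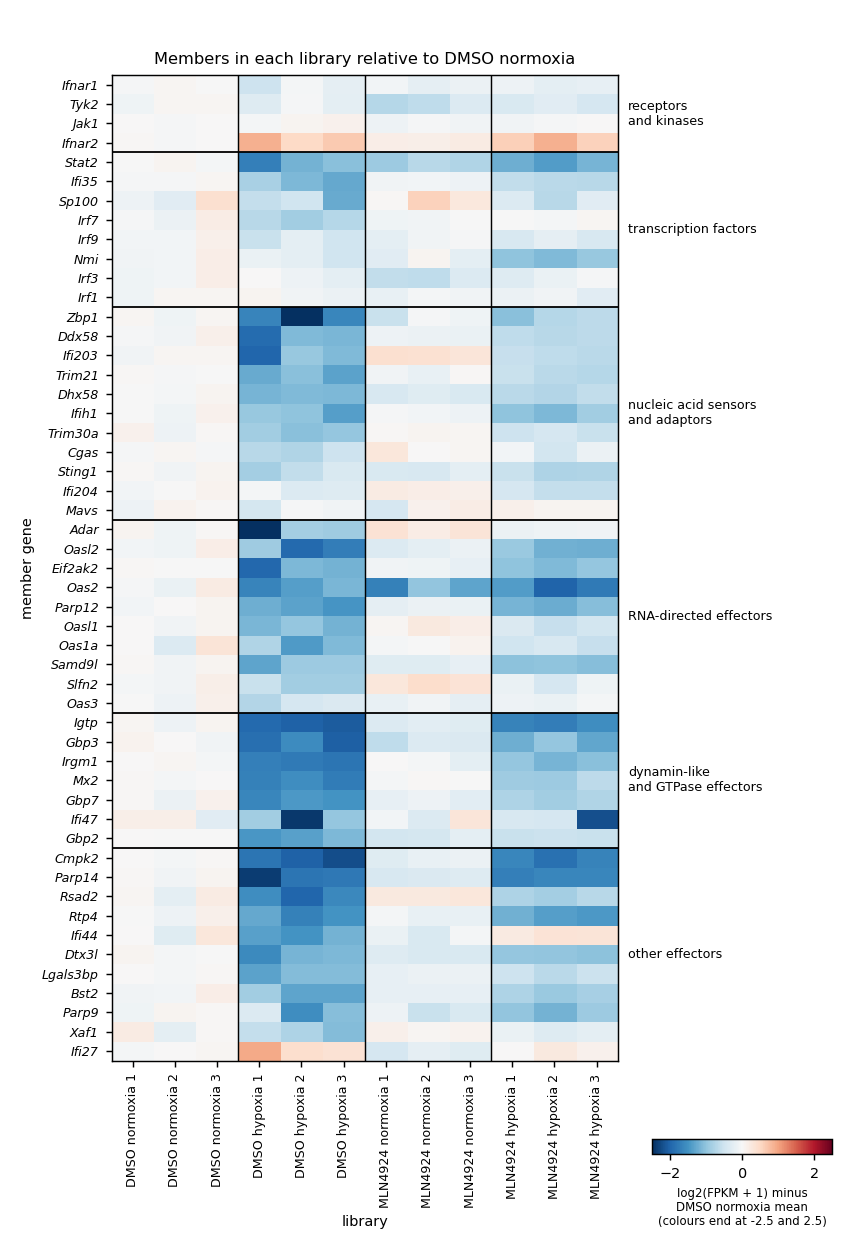
Heat map of the tested members (rows, ordered by role) in the 12 libraries (columns, by group). The colour is the log2(FPKM + 1) of a library minus the mean of the 3 DMSO normoxia libraries. Most rows are low in the 3 DMSO hypoxia libraries and less low in the 3 MLN4924 hypoxia libraries. Among the receptors and kinases, the Ifnar2 row is high in both hypoxia groups and the Tyk2 row is low in MLN4924 normoxia.

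At the top of the pathway the receptor and kinase transcripts did not follow the rest. Ifnar2, a chain of the interferon receptor, read 17.6, 16.9 and 17.6 FPKM in DMSO normoxia and 33.2, 24.8 and 28.1 in DMSO hypoxia. All hypoxia libraries were above all normoxia libraries, and Ifnar2 rose (0.68 ± 0.11, adjusted p = 8.87e-04). With MLN4924 it read 19.6, 19.5 and 20.2 in normoxia and 26.8, 33.1 and 26.4 in hypoxia and rose there too (0.51 ± 0.11, adjusted p = 0.00536). Its partner chain Ifnar1 had group means of 19.3 ± 0.576 and 16.02 ± 2.78 FPKM (SD, n = 3) in DMSO normoxia and hypoxia, a difference that did not pass (-0.27 ± 0.11, adjusted p = 0.0768). The kinase Jak1 lay between 59.5 and 70.2 FPKM in all 12 libraries and passed in no contrast, with a difference in DMSO of 0.04 (95% interval -0.08 to 0.16). Tyk2, the other kinase of the receptor, did not pass with hypoxia in DMSO (-0.20 ± 0.12, adjusted p = 0.216).

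Among the 8 transcription factors and their partners, 5 fell with hypoxia in DMSO. Stat2, a subunit of the interferon-activated complex, read 33.05, 34.8 and 32.2 FPKM in DMSO normoxia and 9.47, 14.2 and 15.7 in DMSO hypoxia (-1.31 ± 0.15, adjusted p = 1.12e-04). Irf7, which drives interferon genes and is itself interferon-induced, read 57.7, 53.4 and 67.3 against 36.5, 32.04 and 35.7 (-0.76 ± 0.08, adjusted p = 9.08e-05). For both genes the groups did not overlap. Ifi35, a binding partner of Nmi, read 82.4, 82.01 and 86.8 against 47.3, 37.96 and 33.8 (-1.07 ± 0.10, adjusted p = 2.60e-05). Sp100, a component of nuclear bodies, read 8.66, 7.65 and 12.8 against 5.98, 6.42 and 3.37 (-0.78 ± 0.24, adjusted p = 0.03), also without overlap, but its replicates were the most scattered of these. The call for Sp100 was lost without DMSO normoxia replicate 1, DMSO normoxia replicate 3 or DMSO hypoxia replicate 3 (adjusted p up to 0.109). Irf9, the DNA-binding part of the complex with Stat2, fell by less, from 18.2 ± 1.47 to 13.3 ± 1.75 (-0.43 ± 0.10, adjusted p = 0.00922). Differences of Irf1, Irf3 and Nmi did not pass (-0.05, -0.13 and -0.31).

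Of the 11 nucleic acid sensors and adaptors tested, 9 fell in DMSO hypoxia. Zbp1, a sensor of Z-form nucleic acid, read 14.9, 13.1 and 14.9 FPKM in DMSO normoxia and 3.89, 1.18 and 3.95 in DMSO hypoxia, the steepest fall of the sensors (-2.02 ± 0.28, adjusted p = 4.31e-04). Ddx58, the RNA sensor RIG-I, read 50.4, 48.7 and 56.3 against 12.9, 23.4 and 22.9 (-1.39 ± 0.18, adjusted p = 2.17e-04), and its lowest value was in DMSO hypoxia replicate 1. Ifi203, of the interferon-inducible family with a pyrin domain, read 9.78, 10.8 and 10.9 against 1.9, 4.96 and 4.32 (-1.35 ± 0.21, adjusted p = 8.94e-04). In all 3 genes every hypoxia library was below every normoxia library. Dhx58, the RIG-I-like receptor LGP2, read 36.05, 35.02 and 38.04 against 15.6, 16.3 and 16.1 (-1.14 ± 0.06, adjusted p = 3.81e-07), and Trim21, a cytosolic antibody receptor and ubiquitin ligase, read 9.48, 9.15 and 9.28 against 3.31, 3.99 and 3.07 (-1.21 ± 0.10, adjusted p = 1.07e-05). These also did not overlap, and their replicates were close. Ifih1 (the RNA sensor MDA5), Trim30a, the DNA sensor Cgas and its adaptor Sting1 fell too (-1.11, -0.96, -0.65 and -0.62). Mavs, the adaptor of the RNA sensors, and Ifi204 did not pass (-0.18 ± 0.16, adjusted p = 0.399 and -0.24 ± 0.08, adjusted p = 0.0527). Without DMSO hypoxia replicate 1, Ifi204 passed as a fall (-0.33, adjusted p = 0.00299). Ifi203 and Ifi204 belong to a family of close copies, so the assignment of fragments between them is uncertain.

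Among the 10 effectors that act on RNA, 9 fell with hypoxia in DMSO. Oasl2, of the oligoadenylate synthetase family, which senses double-stranded RNA, read 48.9, 47.8 and 57.9 FPKM in DMSO normoxia and 27.3, 12.7 and 14.8 in DMSO hypoxia (-1.52 ± 0.22, adjusted p = 5.52e-04). Eif2ak2, the kinase PKR that stops translation on double-stranded RNA, read 63.4, 61.9 and 62.1 against 15.3, 28.2 and 26.8 (-1.42 ± 0.18, adjusted p = 1.86e-04). Oas2 read 13.8, 12.5 and 16.4 against 3.85, 4.84 and 5.87 (-1.39 ± 0.21, adjusted p = 6.93e-04). In each of these the groups were apart, although DMSO hypoxia replicate 1 was the highest of its group for Oasl2 and the lowest for Eif2ak2 and Oas2. Parp12, an interferon-induced ADP-ribosyltransferase, read 57.4, 61.1 and 63.2 against 25.2, 23.5 and 21.2 (-1.34 ± 0.07, adjusted p = 7.04e-07), likewise apart. Oas1a, Oas3, Oasl1, Samd9l and Slfn2 fell by 1.09, 0.50, 1.10, 1.05 and 0.76 on the log2 scale. Slfn2 was the lowest of the tested members, with at most 2.14 FPKM. Adar, the enzyme that edits adenosine in double-stranded RNA, was listed at 0 in DMSO hypoxia replicate 1 and read 10.7 and 10.4 FPKM in the others, against 21.3, 18.5 and 20.7 in DMSO normoxia. Its difference did not pass (-2.05 ± 0.73, adjusted p = 0.054) and did pass without that library (-0.88, adjusted p = 1.17e-05). Oas1a has near-identical neighbours, so its share of their fragments is uncertain.

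The dynamin-like and other GTPases had the lowest median of the roles (-1.66), with 6 of 7 tested members falling. Igtp, an immunity-related GTPase that acts on the vacuoles of intracellular pathogens, read 88.2, 78.2 and 89.8 FPKM in DMSO normoxia and 21.5, 20.1 and 19.3 in DMSO hypoxia, 4.05-fold lower on the FPKM + 1 scale (-2.02 ± 0.07, adjusted p = 3.59e-08). Irgm1, which regulates the same family, read 54.2, 55.6 and 51.7 against 15.9, 15.1 and 14.3 (-1.77 ± 0.08, adjusted p = 1.44e-07). Mx2, a dynamin-like restriction factor, read 12.8, 12.2 and 12.7 against 3.22, 3.62 and 3.03 (-1.66 ± 0.09, adjusted p = 5.54e-07). In these 3 the hypoxia libraries lay close together and far under the normoxia libraries. The guanylate-binding protein Gbp3 read 37.3, 35.1 and 32.98 against 8.78, 11.2 and 7.82 (-1.83 ± 0.13, adjusted p = 6.04e-06). Gbp7 of that family read 19.6, 17.2 and 20.8 against 5.48, 6.43 and 6.2 (-1.52 ± 0.09, adjusted p = 8.79e-07). Gbp2 read 29.7, 29.3 and 29.5 against 10.1, 10.9 and 13.02 (-1.31 ± 0.09, adjusted p = 3.08e-06). No group of a guanylate-binding protein overlapped the other, though Gbp3 and Gbp7 have close copies and their split is uncertain. Ifi47, another immunity-related GTPase, did not pass (-1.42 ± 0.51, adjusted p = 0.0535), with DMSO hypoxia replicate 2 at 1.41 FPKM and the other two at 6.08 and 5.56. Without DMSO hypoxia replicate 1 it passed as a fall (-1.70, adjusted p = 0.0359). Mx1 was at or under 0.77 FPKM in every library and was not tested.

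The remaining 11 effectors divided into 10 that fell and 1 that rose. Cmpk2, a mitochondrial nucleotide kinase, read 14.7, 13.99 and 14.98 FPKM in DMSO normoxia and 3.36, 2.81 and 2.33 in DMSO hypoxia (-2.03 ± 0.11, adjusted p = 5.90e-07). Its genomic neighbour Rsad2, the antiviral enzyme viperin, read 10.4, 8.39 and 11.8 against 2.77, 1.81 and 2.62 (-1.72 ± 0.13, adjusted p = 9.06e-06). Parp14, an ADP-ribosyltransferase, read 17.7, 16.4 and 18.3 against 2.57, 4.21 and 4.34 (-1.996 ± 0.13, adjusted p = 3.46e-06). All 3 had hypoxia libraries well under the normoxia libraries. Rtp4, of the receptor transporter protein family, read 103, 95.5 and 113 against 42.2, 31.6 and 36.1 (-1.48 ± 0.11, adjusted p = 4.80e-06). Lgals3bp, a secreted glycoprotein, read 303, 289 and 307 against 117, 141 and 141 (-1.17 ± 0.07, adjusted p = 2.27e-06). The interferon-induced Ifi44 read 21.9, 17.6 and 26.8 against 7.91, 7.08 and 9 (-1.35 ± 0.14, adjusted p = 6.48e-05). The groups were again apart. Bst2, the virion tether tetherin, had the highest level per length of all members and fell from 584 ± 56.8 to 262 ± 50.9 FPKM. Dtx3l and its partner Parp9, which are neighbouring genes, fell (-1.29 and -0.99), as did the apoptosis-associated Xaf1 (-0.82). Ifi27, a small mitochondrial protein, went the other way at 61.4, 63.9 and 65.9 against 124, 86.1 and 82.2 (0.58 ± 0.13, adjusted p = 0.0078), with the highest value in DMSO hypoxia replicate 1. Without that library the rise was 0.40, adjusted p = 0.00191.

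MLN4924 alone moved fewer members than hypoxia alone. In normoxia 9 of 51 (17.6%) fell and 0 rose, where 10.7% of all tested genes fell and 9.33% rose, 20.0% in all, and the median was -0.15 against -0.03 for all genes. At an unadjusted p under 0.05 in limma, 1 was higher and 15 were lower, where 14.7% of all tested genes were higher and 17.6% lower. Oas2 moved most, with 3.71, 6.64 and 5.07 FPKM in MLN4924 normoxia, all under its DMSO normoxia values (-1.33 ± 0.21, adjusted p = 0.00144). Stat2 read 17.4, 20.1 and 19.4 there, also under all DMSO normoxia values (-0.79 ± 0.15, adjusted p = 0.00424). Tyk2 read 3.23, 3.49 and 4.48 against 5.47, 6.23 and 6.21 in DMSO (-0.57 ± 0.12, adjusted p = 0.00779). So Oas2 and Stat2 were already low with the inhibitor alone. Dhx58, Irf3, Gbp2, Gbp3, Igtp and Dtx3l fell by 0.36, 0.53, 0.38, 0.44, 0.31 and 0.36. The last 5 lost their calls when some single libraries were left out. Gbp2 lost its call without MLN4924 normoxia replicate 1 (adjusted p = 0.0503), Igtp without DMSO normoxia replicate 1 or 3 (up to 0.0548) and Irf3 without DMSO normoxia replicate 3 or MLN4924 normoxia replicate 2 (up to 0.0543). Gbp3 lost it with 7 and Dtx3l with 9 of the 12 single-library omissions (up to 0.149 and 0.136). These included MLN4924 hypoxia libraries, which are in neither group compared. The differences stayed between -0.50 and -0.34 for Gbp3 and between -0.39 and -0.33 for Dtx3l. The count of falls was 5 without DMSO normoxia replicate 3 and 18 when DMSO hypoxia replicate 1 was left out, a library of neither group that adds to the spread all groups share. Without that library 3 rose, Adar, Ifi203 and Slfn2, while the shares of all genes above are from the fit with all libraries. In 24 of the 52 members every MLN4924 normoxia library was below every DMSO normoxia library, against 26.2% of tested genes.

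The hypoxia effect was then compared between the arms by the interaction, the difference of the MLN4924 arm less that of the DMSO arm. It passed as positive in 11 of 51 members and as negative in 0, where 0.958% of all tested genes passed as positive and 0.926% as negative (1.88% in all). All 11 had fallen in DMSO, so for them the fall was smaller with MLN4924. The 2 hypoxia contrasts use separate libraries, but the interaction contains the DMSO hypoxia libraries that also gave the 39 falls. The interaction estimate was above 0 in 46 of 51 members, with a median of 0.50, and in 6508 of 12311 genes, with a median of 0.02. By role, the 11 were 6 of the 7 tested GTPases, 2 of 11 sensors, 2 of 11 other effectors and 1 of 8 transcription factors. Of the 10 RNA-directed effectors 0 passed, with 5 at an unadjusted p under 0.05 and a positive estimate, and of the 4 receptors and kinases 0 passed, with 1 at that level. A difference between the roles was not tested. Over all members, 29 were positive and 2 negative at an unadjusted p under 0.05, where 7.68% of all tested genes were positive and 6.92% negative at that level.

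**Figure D2:**
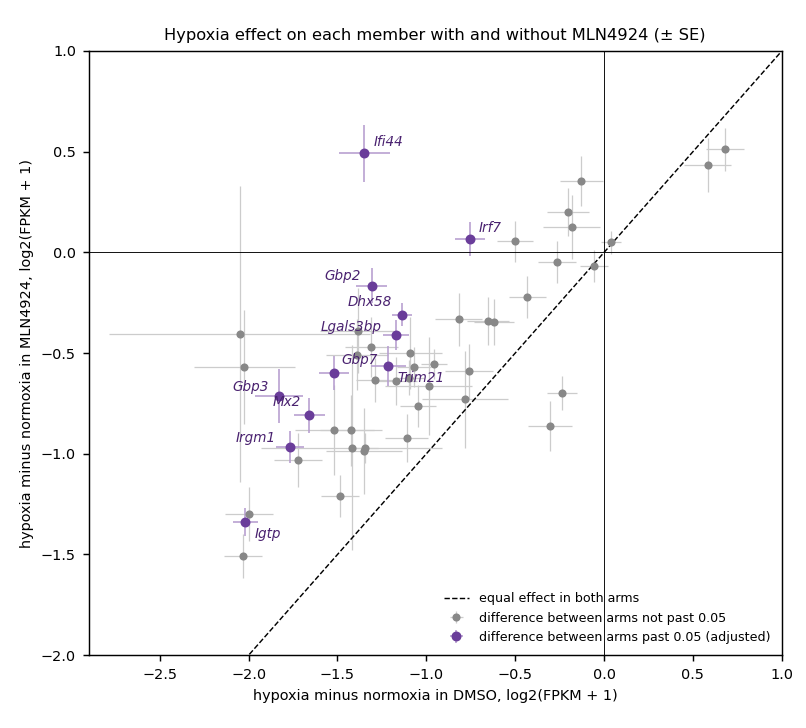
Hypoxia effect of each tested member with DMSO (horizontal axis) and with MLN4924 (vertical axis), both as differences of log2(FPKM + 1) between group means of 3 libraries; the diagonal marks equal effects. Most points lie above the diagonal and below 0 on both axes, and the 11 members past the interaction threshold are marked by name.

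Of the 39 members that fell in DMSO, 1, Ifi44, rose with hypoxia in the arm with MLN4924. It read 19.4, 16.5 and 20.96 FPKM in MLN4924 normoxia and 25.8, 27.7 and 27.4 in MLN4924 hypoxia, with every hypoxia library above every normoxia library, the reverse of the order in DMSO. The rise was 0.49 ± 0.14, adjusted p = 0.0253 and the interaction 1.84 ± 0.20, adjusted p = 0.00198. The rise, though not the interaction, lost its call without MLN4924 normoxia replicate 1 or 2 or MLN4924 hypoxia replicate 2 or 3 (adjusted p up to 0.0968). Against untreated cells, those in DMSO normoxia, Ifi44 with both did not pass (0.29 ± 0.14, adjusted p = 0.136). Irf7 read 54.6, 55.5 and 59.1 in MLN4924 normoxia and 58.7, 57.4 and 61.1 in MLN4924 hypoxia, groups that overlapped, and no fall was found (0.07 ± 0.08, adjusted p = 0.614, 95% interval -0.12 to 0.25). Its interaction was 0.82 ± 0.12, adjusted p = 0.00848. Gbp2 read 21.2, 21.4 and 24.7 against 19.8, 20 and 19.8, with the hypoxia libraries below those of normoxia by a difference that did not pass (-0.17 ± 0.09, adjusted p = 0.19, 95% interval -0.36 to 0.03). Its interaction was 1.14 ± 0.12, adjusted p = 0.00198. Gbp2 with both remained below untreated (-0.55 ± 0.09, adjusted p = 7.28e-04), having also fallen with MLN4924 alone, and Irf7 with both did not pass against untreated (-0.003 ± 0.08, adjusted p = 0.983).

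The other 8 of the 11 still fell with hypoxia in MLN4924, by less than in DMSO. Among them Gbp3, Dhx58 and Igtp had also fallen with MLN4924 alone in normoxia (-0.44, -0.36 and -0.31). Part of their interaction is thus a lower starting level in normoxia. In hypoxia MLN4924 raised these genes by 0.67, 0.47 and 0.37. Gbp3 read 22.1, 27.6 and 27.2 FPKM in MLN4924 normoxia and 14.5, 17.6 and 13.7 in MLN4924 hypoxia, with an interaction of 1.12 ± 0.19, adjusted p = 0.0165. Gbp7 read 16.4, 17.4 and 15.8 against 10.7, 10 and 11.02 (0.92 ± 0.12, adjusted p = 0.00559). Mx2 read 12.1, 12.8 and 12.5 against 6.31, 6.24 and 7.62 (0.85 ± 0.12, adjusted p = 0.00848). In these 3 the MLN4924 hypoxia libraries stood between the DMSO hypoxia and the normoxia libraries without overlap. Dhx58 read 27.4, 29.4 and 27.6 against 22.3, 21.6 and 23.5 (0.83 ± 0.08, adjusted p = 0.00165). Irgm1 read 54.4, 51.8 and 45.5 against 27.2, 23.6 and 25.4 (0.80 ± 0.11, adjusted p = 0.00665). Lgals3bp read 260.1, 270.1 and 272 against 209, 188 and 205 (0.76 ± 0.10, adjusted p = 0.00669). The same order of groups held for these. Igtp read 66.9, 70.4 and 69.1 against 26.1, 25.2 and 28.5 (0.68 ± 0.10, adjusted p = 0.00875), so its level in MLN4924 hypoxia was nearer to DMSO hypoxia than to normoxia. Trim21 read 8.68, 8.03 and 9.58 against 6.02, 5.49 and 5.28 (0.65 ± 0.14, adjusted p = 0.0435). The interaction of Trim21 lost its call with 10 of the 12 single-library omissions, all but DMSO hypoxia replicates 1 and 2 (adjusted p up to 0.12), and that of Gbp3 without DMSO normoxia replicate 1 (adjusted p = 0.0563).

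**Figure D3:**
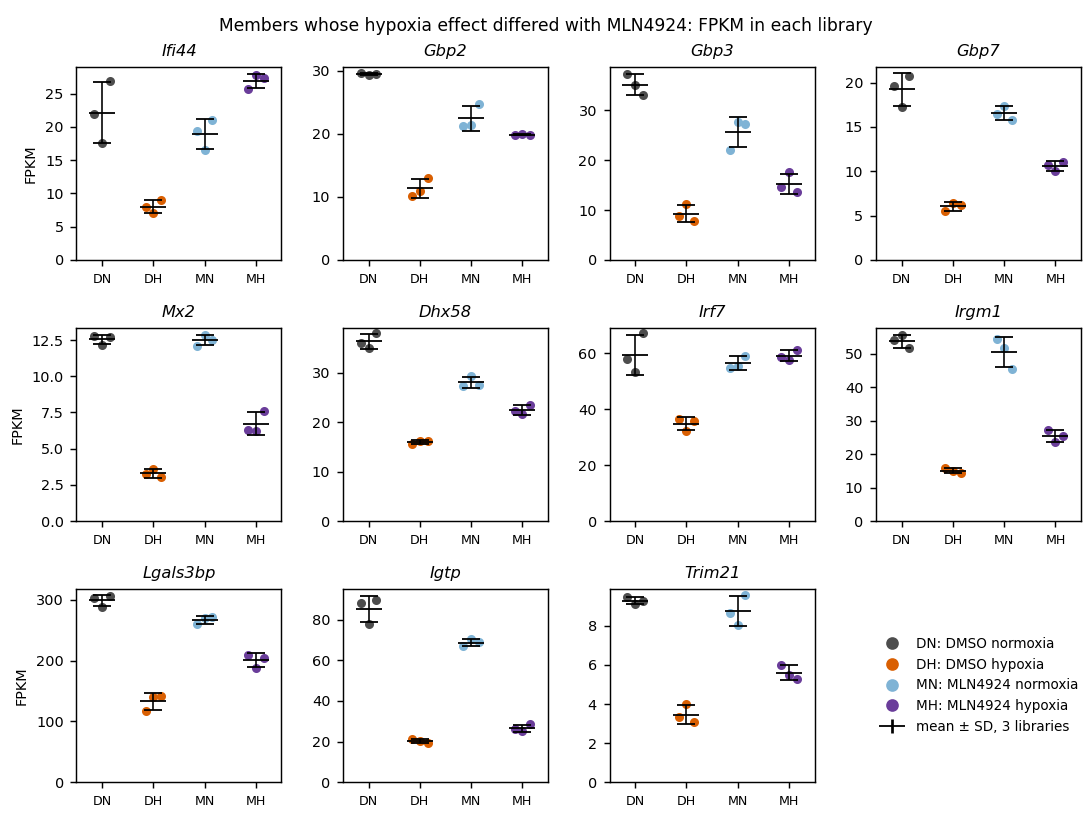
FPKM of the 11 members past the interaction threshold, 1 panel each with its own axis from 0; points are libraries, and bars are the mean of 3 with the SD as error bar. In every panel the DMSO hypoxia points are the lowest group, and for Ifi44 the MLN4924 hypoxia points, at 25.8 to 27.7 FPKM, lie above the MLN4924 normoxia points.

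For the remaining 28 of the 39 the interaction did not pass, and 19 of these fell in both arms. Cmpk2 read 11.7, 12.7 and 13.01 FPKM in MLN4924 normoxia against 4.04, 3.28 and 3.89 in MLN4924 hypoxia (-1.51 ± 0.11, adjusted p = 6.30e-06). Parp14 read 13.1, 13.3 and 13.9 against 4.68, 4.93 and 4.96 (-1.30 ± 0.13, adjusted p = 8.04e-05). Rtp4 read 100.4, 91.6 and 91.3 against 44.3, 39.04 and 37.7 (-1.21 ± 0.11, adjusted p = 2.53e-05). All 3 were low again in hypoxia, without overlap, and the 95% intervals of their interactions, not adjusted for the number of genes, were 0.18 to 0.86, 0.27 to 1.12 and -0.06 to 0.61. Rsad2 read 12.1, 12.2 and 12.5 against 5.56, 5.16 and 5.86 (-1.03). Parp12 read 51.8, 54.6 and 53.7 against 26.6, 25.1 and 28.6 (-0.97). Both fell, again without overlap. Oasl2 read 40.4, 43.3 and 46.5 against 26.4, 21.8 and 21.3 (-0.88). Eif2ak2 read 58.3, 58.03 and 54.05 against 30.7, 28.7 and 31.6 (-0.88). These RNA sensors fell in this arm with their groups apart too. Stat2 read 17.4, 20.1 and 19.4 in MLN4924 normoxia and 13.8, 12.03 and 14.4 in MLN4924 hypoxia (-0.47). Ifi35 read 78.4, 79.96 and 76.2 against 54.02, 51.9 and 51.3 (-0.57). Sp100 read 9.75, 14.6 and 11.6 against 7.3, 5.47 and 7.63 (-0.73). The groups of these transcription factors and partners were apart as well, but Stat2 started from an already low level. Ifi203 read 14.3, 13.96 and 13.1 against 6.71, 6.39 and 6.26 and fell (-0.99). Ifih1, Sting1, Trim30a, Oasl1, Samd9l, Slfn2, Bst2 and Dtx3l complete these, with differences from -0.92 for Ifih1 to -0.35 for Sting1. The falls of Stat2, Sting1 and Sp100 in this arm lost their calls with 9, 9 and 7 of the 12 single-library omissions (adjusted p up to 0.13, 0.139 and 0.154).

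The last 9 of the 28 did not pass with hypoxia in MLN4924, and their interaction did not pass either, so for them a loss of the fall was not shown. Zbp1 read 9.31, 13.9 and 13.1 FPKM in MLN4924 normoxia and 6.38, 8.34 and 8.64 in MLN4924 hypoxia, apart but scattered, with an interaction of 1.46 ± 0.40, adjusted p = 0.112 and an interval of 0.57 to 2.35. Ddx58 read 47.1, 46.3 and 46.1 against 33.1, 31.8 and 32.5, again apart (0.88 ± 0.25, adjusted p = 0.121). Oas2 read 3.71, 6.64 and 5.07 against 4.75, 2.8 and 3.45, groups that overlapped at a level as low as in DMSO hypoxia (1.00 ± 0.30, adjusted p = 0.145). Oas3 had means of 13.1 ± 0.659 and 13.7 ± 0.569 (0.56 ± 0.15, adjusted p = 0.0953). Irf9, Cgas, Oas1a, Xaf1 and Parp9 had interactions of 0.21, 0.31, 0.59, 0.48 and 0.32. Without DMSO hypoxia replicate 1 the interaction of Parp9 was 0.64, adjusted p = 0.137. Without that library 5 of the 9, Ddx58, Cgas, Oas1a, Xaf1 and Parp9, passed as falls with hypoxia in MLN4924 (adjusted p up to 0.0409). Across the 39 members that fell in DMSO every interaction estimate was above 0, but the choice of these members by their fall uses the same libraries, so that count is a description.

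How many members pass depended on DMSO hypoxia replicate 1, the library that stood apart. Without it 25 members passed a positive interaction, all of the 11 among them, and 20 of the 25 also fell in MLN4924. The shares of all tested genes given for the interaction come from the fit with all libraries, so the 25 have no such share beside them. Those added were Stat2, Oas3, Oasl2, Rsad2, Ifi35, Ddx58, Parp12, Parp14, Dtx3l, Cmpk2, Bst2, Zbp1, Adar and Trim30a. Stat2 then had 0.64, adjusted p = 0.013 and Ddx58 0.62, adjusted p = 0.00203. Ifi204 passed as negative (-0.37, adjusted p = 0.0379), a larger fall with MLN4924 than with DMSO. With all libraries Ifi204 and Nmi had the lowest interactions (-0.46 ± 0.12, adjusted p = 0.0915 and -0.56 ± 0.18, adjusted p = 0.171). Ifi204 read 44.2, 46.3 and 49.2 FPKM in DMSO normoxia, 44.7, 36.6 and 37.2 in DMSO hypoxia, 53.5, 52.2 and 50.9 in MLN4924 normoxia and 34.7, 30.5 and 30.4 in MLN4924 hypoxia. Nmi read 9.34, 9.55 and 11.4 FPKM in DMSO normoxia, 8.81, 8.31 and 6.81 in DMSO hypoxia, 8.05, 10.5 and 8.3 in MLN4924 normoxia and 4.51, 4.14 and 4.71 in MLN4924 hypoxia. Both were lowest in MLN4924 hypoxia, without overlap with any other group, and both are named here after their values were seen.

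**Figure D4:**
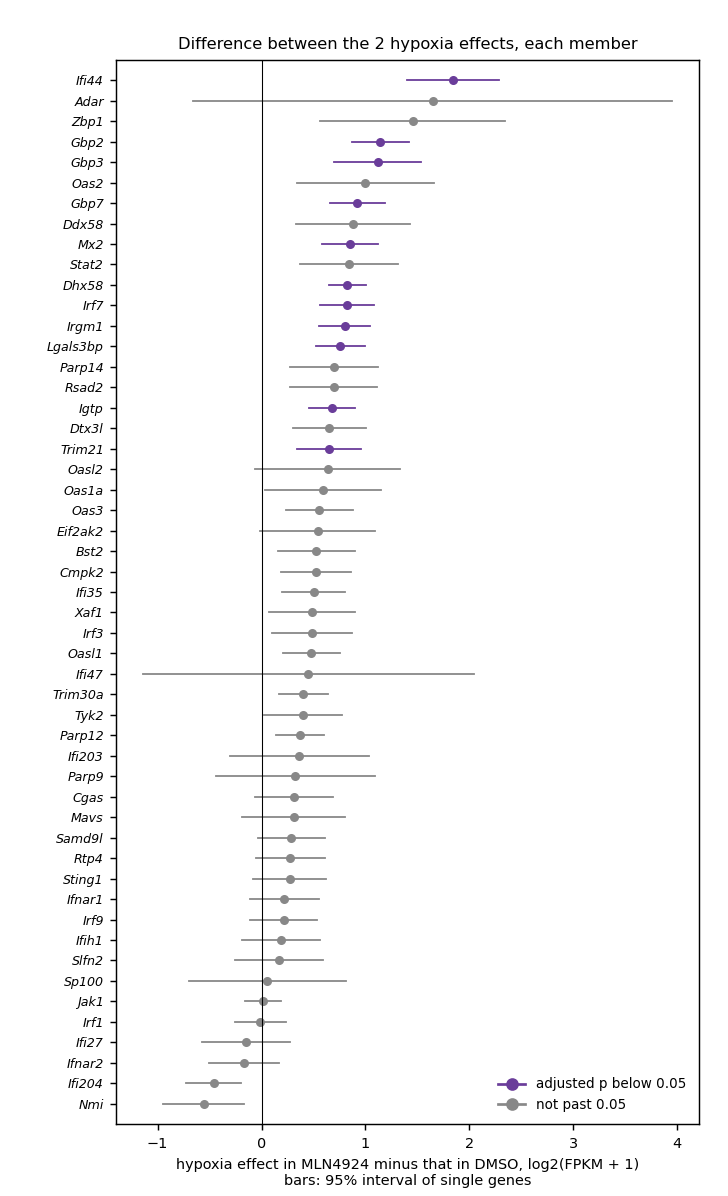
Interaction of each tested member (MLN4924 arm less DMSO arm, difference of log2(FPKM + 1)) as a point with its 95% interval from limma, ordered by size. Ifi44 is at 1.84, Adar has the widest interval, and the 11 members past the adjusted threshold are marked.

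Within hypoxia, MLN4924 raised 23 of 51 members and lowered 3, where 12.2% of all tested genes rose and 13.3% fell, with medians of 0.39 and -0.01. All 23 were among the 39 that hypoxia lowered in DMSO; both contrasts contain the DMSO hypoxia libraries. In 28 of the 52 members every MLN4924 hypoxia library was above every DMSO hypoxia library, against 18.1% of tested genes. The summed level was 1462 to 1542 FPKM in MLN4924 hypoxia, above every DMSO hypoxia library and below every normoxia library. Ifi44 rose most (1.64 ± 0.14, adjusted p = 3.36e-05), followed by Zbp1 (1.22 ± 0.28, adjusted p = 0.0106), and the GTPases Mx2, Irgm1, Gbp7, Gbp2, Gbp3 and Igtp by 0.85, 0.71, 0.72, 0.76, 0.67 and 0.37. The sensors Ddx58, Ifi203, Trim21, Dhx58, Cgas and Trim30a rose by 0.73, 0.72, 0.57, 0.47, 0.42 and 0.46. The rest were Irf7, Ifi35, Oas1a, Oas3, Oasl1, Slfn2, Rsad2, Xaf1 and Lgals3bp, between 0.39 for Oas3 and 0.95 for Rsad2. Nmi, Ifi204 and Ifi27 fell (-0.71, -0.30 and -0.46). Calls were lost for Ifi203 without MLN4924 hypoxia replicate 1, 2 or 3, for Oas3, Slfn2 and Ifi27 without replicate 1 or 3 of that group, for Ifi204 without replicate 2 or 3, for Cgas without DMSO hypoxia replicate 2 or MLN4924 hypoxia replicate 1 or 3, and for Oas1a with 5 libraries of these groups omitted singly. Without MLN4924 hypoxia replicate 3 the members that fell numbered 1, and without DMSO hypoxia replicate 1, 28 rose and 3 fell. The shares of all genes above are again from the fit with all libraries. The highest adjusted p among the calls lost was 0.0982. Without DMSO hypoxia replicate 1 the difference of Ddx58 was 0.47, adjusted p = 2.21e-04, that of Ifi203 0.40, adjusted p = 0.00323 and that of Ifi27 -0.28, adjusted p = 0.0157.

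Hypoxia within MLN4924 lowered 29 of 51 members and raised 3, against 16.5% and 11.7% of all tested genes, with medians of -0.57 and -0.05. In 38 of the 52 members the MLN4924 hypoxia libraries were all below those of MLN4924 normoxia, against 30.7% of tested genes. The 3 that rose were Ifnar2, Ifi44 and Ifi27, and this count was as low as 1 without single libraries of the MLN4924 groups. Ifi27 read 47.7, 54.3 and 51.5 FPKM in MLN4924 normoxia and 63.99, 75.2 and 69.1 in MLN4924 hypoxia (0.43 ± 0.13, adjusted p = 0.0353), a call lost with 6 of the 12 single-library omissions (adjusted p up to 0.12). Set against untreated cells, MLN4924 with hypoxia lowered 34 members and raised 1, Ifnar2, where 21.2% of all tested genes fell and 14.6% rose (35.8% in all). The medians were -0.66 and -0.07. Of the 39 members lowered by hypoxia in DMSO, 31 were still lower than in untreated cells and 8 did not pass. These 8 were Irf7, Sp100, Cgas, Oas1a, Oas3, Slfn2, Ifi44 and Xaf1, with intervals such as -0.19 to 0.18 for Irf7 and -0.34 to 0.11 for Oas3. Oas2 and Cmpk2 were the furthest below untreated (-1.72 ± 0.21, adjusted p = 1.27e-04 and -1.72 ± 0.11, adjusted p = 1.29e-06). Zbp1 and Ifi203 lost this call with 9 and 9 of the 12 single-library omissions (adjusted p up to 0.144 and 0.105), Tyk2 with 5 (up to 0.105), Irf9 without DMSO normoxia replicate 3 or MLN4924 hypoxia replicate 1 or 3 (up to 0.0972) and Ddx58 without DMSO normoxia replicate 3 (adjusted p = 0.0523). The count raised was 2 without DMSO normoxia replicate 3.

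Members were also set side by side by the promoter letters printed above. Of 19 tested members with the interferon core in a window, 18 fell with hypoxia in DMSO, with a median difference of -1.35, and 7 passed a positive interaction, with a median of 0.68. Of 22 matched and tested members without it, 13 fell, with a median of -0.76, and 2 passed the interaction, with a median of 0.39. The 7 are those whose stretches are printed. Of Dhx58, Irf7, Mx2 and Lgals3bp, the others of the 11, 2 had a window without a match. The rest of these had no window, so nothing is known here of their promoter letters. The member that holds the core and did not pass as a fall was Adar, the gene listed at 0 in 1 library. The members with and without the core also differ in role. Of the 7, Gbp2, Gbp3, Gbp7, Igtp and Irgm1 are GTPases, and those without the core include Ifnar1, Ifnar2 and Irf1, which did not fall. No test was made of this division.

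Other genes of the pathway were counted in the same fit. Of 17 interferons and other interferon receptors, 8 were in the table and 3 were tested. Ifnb1, the interferon that most cells can make, read 0.12, 0.23 and 0.47 FPKM in DMSO normoxia and was listed at 0 in all 6 hypoxia libraries, and in MLN4924 normoxia it read 0, 0.58 and 0; it was too low to be tested. Il10rb, a chain of the type III interferon receptor, read 15.7, 14.9 and 15.4 against 22.2, 21.4 and 20.02 FPKM in DMSO normoxia and hypoxia and rose (0.44 ± 0.07, adjusted p = 0.00104). Of 28 tested signalling genes and brakes, 10 (35.7%) fell with hypoxia in DMSO, where 19.4% of all tested genes fell. Trex1, Usp18, Tlr3 and Ptpn1 moved most (-2.33, -1.85, -1.41 and -1.15). Ptpn1 lost its call without DMSO normoxia replicate 1 or 2 (adjusted p up to 0.0849), with differences from -1.44 to -0.76 over all single-library omissions. The interaction passed as positive in 2 of the 28 (7.14%), against 0.958% of all tested genes. Usp18, the protease that removes ISG15 and damps the receptor, read 86.8, 86.7 and 89.7 FPKM in DMSO normoxia, 26.4, 23.4 and 21.1 in DMSO hypoxia, 81.8, 81.1 and 80.7 in MLN4924 normoxia and 43.02, 40.9 and 42.2 in MLN4924 hypoxia (0.92 ± 0.10, adjusted p = 0.00198). Trex1, a nuclease that removes cytosolic DNA, read 24.1, 23.6 and 26.4 FPKM in DMSO normoxia, 4.94, 4.39 and 3.16 in DMSO hypoxia, 29.6, 24.5 and 23.5 in MLN4924 normoxia and 15.9, 8.65 and 12.7 in MLN4924 hypoxia (1.296 ± 0.27, adjusted p = 0.0442). In both the MLN4924 hypoxia libraries lay above the DMSO hypoxia libraries and below both normoxia groups. The interaction of Trex1 lost its call with 10 of the 12 single-library omissions (adjusted p up to 0.12).

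Of 55 further interferon-stimulated genes tested, 37 (67.3%) fell with hypoxia in DMSO and 1 rose, with a median of -0.73. Over all tested genes 19.4% fell and 13.8% rose. A positive interaction passed in 12 of the 55 (21.8%), with a median of 0.49, against 0.958% of all tested genes. The RNA-binding effector Ifit3 fell most, from 89.1, 80.3 and 105 to 7.53, 7.03 and 6.39 FPKM (-3.53 ± 0.12, adjusted p = 3.59e-08), followed by its copy Ifit3b (-3.38), Uba7 (-3.09) and Ifit1 (-2.79). In MLN4924 Ifit3 read 47.5, 51.9 and 51.3 in normoxia and 9.37, 12.9 and 10.3 in hypoxia, so it was lower with the inhibitor alone and lower again with both (-2.12 ± 0.12, adjusted p = 1.58e-06), with an interaction of 1.41 ± 0.17, adjusted p = 0.00396. The largest interactions past the threshold were those of Ifit3b (1.46), Iigp1 (1.42), Ifit3 and Ifit1 (1.19). Iigp1 lost this call without DMSO normoxia replicate 1 or 3 or MLN4924 normoxia replicate 1 or 3 (adjusted p up to 0.0678), and Ifit3b without MLN4924 normoxia replicate 3 (adjusted p = 0.0528). Ifit3 and Ifit3b are near-identical, so the split between them is uncertain.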

How the data were processed

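RNA from 12 GC-2 libraries was measured as FPKM per gene symbol, computed by the authors and deposited as 1 table; per the submitters' processing notes the tools were fastp, STAR and RSEM 1.3.3 with build mm39, and the annotation and strandedness are not given in the sources used here. Per the labels' protocols, reads were paired and 150 nt long. Titles name GC-2 in every sample, whereas the label for cell type increases in number from sample to sample, and all were taken as GC-2. FPKM holds no read counts, so no count model was used and antisense or overlapping genes may share fragments.

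The filter kept 12311 genes that reached 1 FPKM in 3 or more of 12 libraries. Their log2(FPKM + 1) values went into limma 3.58.1 (R 4.3.3) with a mean for each group and an intensity trend. The 6 contrasts were two-sided, adjusted by Benjamini-Hochberg over all tested genes, with a threshold of 0.05. With 3 libraries per group an exact permutation test cannot pass that threshold. The added 1 FPKM makes folds of low genes smaller. The members and the other lists were chosen with earlier results of these data known, and 1 gene of the list of signalling genes and brakes is not reported here and stays out of its counts. Values in every library are given for members past the interaction and for the 4 of each role with the largest change past the threshold in DMSO hypoxia, and of other lists up to 4 genes per contrast are named. Promoter windows come from RefSeq on GRCm38.p6, another build than the table's, and were matched by symbol only, read with Python 3.11.15. Alternatives were other pseudocounts, no or a stricter filter, other scalings, array weights, a replicate block, fits of only the groups compared, and leaving out each library.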

Additional observations from a re-analysis of the deposited data

Results flagged for a closer look

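In 11 members and 7 other genes named here the effect of hypoxia differed between the DMSO and the MLN4924 arm by the interaction in limma, with Benjamini-Hochberg adjustment over all tested genes. Among the members the effect in the MLN4924 arm less that in the DMSO arm, on the log2(FPKM + 1) scale, was 1.84 for Ifi44 (adjusted p = 0.00198), 1.14 for Gbp2 (adjusted p = 0.00198), 1.12 for Gbp3 (adjusted p = 0.0165), 0.92 for Gbp7 (adjusted p = 0.00559), 0.85 for Mx2 (adjusted p = 0.00848) and 0.83 for Dhx58 (adjusted p = 0.00165). It was 0.82 for Irf7 (adjusted p = 0.00848), 0.80 for Irgm1 (adjusted p = 0.00665), 0.76 for Lgals3bp (adjusted p = 0.00669), 0.68 for Igtp (adjusted p = 0.00875) and 0.65 for Trim21 (adjusted p = 0.0435). Among the other genes of the pathway it was 1.46 for Ifit3b (adjusted p = 0.0155), 1.42 for Iigp1 (adjusted p = 0.0214), 1.41 for Ifit3 (adjusted p = 0.00396), 1.296 for Trex1 (adjusted p = 0.0442), 1.19 for Ifit1 (adjusted p = 0.00178), 1.17 for Gbp6 (adjusted p = 0.0178) and 0.92 for Usp18 (adjusted p = 0.00198). Every one of these is positive, that is, a smaller fall or a rise with MLN4924. Gbp6 was named after its values were seen and lost its call with 6 of the 12 single-library omissions (adjusted p up to 0.0588).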

How the results depend on the processing

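Over 8756 single-gene differences recomputed with other settings, 8318 kept their direction and side of the threshold, 230 no longer passed, 208 newly passed and 0 changed sign while called. Leaving out each library in turn, members that rose or fell numbered 2 to 2 and 38 to 43 for hypoxia in DMSO, 0 to 3 and 5 to 18 for MLN4924 in normoxia, 18 to 28 and 1 to 3 for MLN4924 in hypoxia, 1 to 4 and 26 to 35 for hypoxia in MLN4924, 1 to 2 and 29 to 36 for both against untreated, and 9 to 25 and 0 to 1 for the interaction. The fall was smaller with MLN4924 in 9 to 25 members, of which 6 to 20 also fell in MLN4924, and larger in 0 to 1. All 11 interaction calls were also made without DMSO hypoxia replicate 1, and 9 of 11 in every such fit. The highest interaction count and the highest MLN4924 normoxia counts came without that library. For MLN4924 in normoxia the difference of Stat2 was -0.79 with and without that library, while its standard error was 0.15 with it and 0.08 without it. Why that library stood apart was not tested.

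With array weights 3 members rose and 17 fell with MLN4924 in normoxia, 26 had a positive and 1 a negative interaction, the fall was smaller in 26 (21 of which also fell in MLN4924) and larger in 1. No share of all tested genes stands beside the counts of members under these settings. A fit of only the groups compared gave 1 rise with hypoxia in DMSO, 4 rises and 17 falls with MLN4924 in normoxia, and 15 rises and 1 fall with MLN4924 in hypoxia. Quantile normalization gave 14 falls with MLN4924 in normoxia and 1 negative interaction, a larger fall in 1. No filter on low values gave 1 rise with hypoxia in MLN4924. Trim21 lost its interaction call with no filter, a fixed total, quantile normalization and the replicate block. Same-numbered libraries did not deviate together (18 pairs, correlations -0.0697 to 0.0993, 0 over 0.1), so the numbers were not used as pairs; with the replicate block 38 members fell with hypoxia in DMSO and 10 had a positive interaction, and no count moved by over 1.5 times. Depth is unknown in FPKM, which limits what can be said of Mx1, Slfn2 and Ifnb1.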

Other observations

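Among the other interferon-stimulated genes 1, Isg20, an exonuclease, rose with hypoxia in DMSO. It read 28.2, 30.1 and 30.2 FPKM in DMSO normoxia, 96.1, 77.2 and 72.2 in DMSO hypoxia, 29.1, 33.9 and 35.7 in MLN4924 normoxia and 80.4, 83.5 and 79.9 in MLN4924 hypoxia. Both hypoxia groups were above both normoxia groups, and the rise was 1.43 ± 0.10, adjusted p = 5.27e-06 in DMSO and 1.28 ± 0.10, adjusted p = 1.41e-05 in MLN4924 (limma, Benjamini-Hochberg). Ifngr2, a chain of the interferon gamma receptor, read 14.98, 14.5 and 15.1 against 16.8, 15.01 and 14.02 with DMSO and 8.53, 9.67 and 9.45 against 8.56, 8.73 and 8.78 with MLN4924, in normoxia and hypoxia in that order. It fell with MLN4924 in normoxia (-0.63 ± 0.08, adjusted p = 2.61e-04) and in hypoxia (-0.75 ± 0.08, adjusted p = 9.47e-05), and hypoxia in DMSO did not pass (adjusted p = 0.737). Gbp6, a further guanylate-binding protein, read 5.13, 3.51 and 5.1 in DMSO normoxia, 0.94, 1.2 and 1.19 in DMSO hypoxia, 7.83, 6.02 and 6.77 in MLN4924 normoxia and 5.07, 6.21 and 5.88 in MLN4924 hypoxia. It fell with hypoxia in DMSO (-1.39 ± 0.14, adjusted p = 5.45e-05) and did not pass with hypoxia in MLN4924 (-0.23 ± 0.14, adjusted p = 0.278). These 3 genes were named after their values were seen.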
